A study of Mus musculus with 12 samples.

Results

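The 8 genes described here encode transcription factors that steer bone marrow progenitors towards neutrophils or towards monocytes and dendritic cells: Spi1 (the protein is PU.1), the C/EBP family genes Cebpa, Cebpb, Cebpd, Cebpe and Cebpg, Gfi1 and Irf8. They were chosen by symbol, and all 8 of 8 were found among the 24533 genes of each of the 2 tables used, with an adjusted p in both. RNA was sequenced from 12 libraries of C57BL/6 mouse bone marrow in 4 groups of 3: lineage-negative cells (LinNeg, source labelled BM) and LSK cells (source labelled BMT), the stem cell fraction sorted as negative for lineage markers and positive for both Sca-1 and c-Kit, each with the genotype label WT or U2af1KO. U2af1 encodes the smaller part of the U2AF splicing factor, which binds the end of introns, and the KO label refers to this gene. The labels do not spell out BMT, and they name no driver of the deletion, no age, no sex and no number of animals. Nothing in them says that the 3 libraries of a group came from separate mice, so the p-values reflect only how far these libraries differ, which may be technical variation.

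PU.1 is needed by all myeloid lineages, and C/EBPalpha turns multipotent progenitors into granulocyte and monocyte progenitors. IRF8 then favours monocytes and dendritic cells, while GFI1, a repressor, and C/EBPepsilon, which drives the late granule genes, favour neutrophils. C/EBPbeta and C/EBPdelta act in emergency granulopoiesis and inflammation, and C/EBPgamma lacks an activation domain and pairs with the other family members.

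In LinNeg cells 6 of the 8 genes fell in libraries labelled KO and none rose, with Irf8 67.3-fold lower and Spi1 8.87-fold lower. Of all genes tested in LinNeg, 19.3% were called lower and 22.1% higher. In LSK cells all 8 were called: Irf8, Spi1 and Cebpg fell, and Cebpe, Cebpb, Cebpd, Cebpa and Gfi1 rose, with Cebpe 4.07-fold higher. Most genes tested in LSK were called, 29.2% lower and 32.4% higher. For 7 of the 8 the effect differed between the populations, each time higher in LSK than in LinNeg. Over all genes tested in both, 17.4% were higher in LSK and 14.5% lower. Every fold change compares KO with WT and was taken from the authors' deposited tables, as a log2 value except where written as x-fold. A gene is called when its adjusted p there, from DESeq2, is under 0.05.

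The gene models frame how these counts can be read. In GENCODE M21 (build GRCm38, the assembly called mm10 in the submitters' processing notes) Cebpa on chromosome 7 (35119293 to 35121928, plus strand), Cebpb on chromosome 2 (167688915 to 167690418, plus strand) and Cebpd on chromosome 16 (15887286 to 15891031, plus strand) each have a main transcript with 1 exon and 0 introns. Cebpe on chromosome 14 (54710360 to 54712174, minus strand) and Cebpg on chromosome 7 (35046422 to 35056573, minus strand) have 2 exons each. The main transcript of Spi1 on chromosome 2 (91082390 to 91115756, plus strand) has 5 exons, that of Gfi1 on chromosome 5 (107716657 to 107726036, minus strand) has 7, and that of Irf8 on chromosome 8 (120736358 to 120756694, plus strand) has 9. Cebpa and Cebpg are neighbours, with 62719 bases between them. Exons of Cebpa, Cebpb, Cebpd, Cebpg and Gfi1 overlap exons of a gene on the opposite strand. Those of Cebpg also overlap exons of Gm44836 on the same strand, which counting by strand would not separate. The sources used here do not say whether counting used strand or how reads in overlaps were treated. Whether reads of these partners entered the counts or were set aside therefore cannot be told. Values are at hand for 2 of the partners. In the authors' deposited tables Tmem189, over Cebpb, was at -0.69 in LinNeg and -0.13 in LSK, and Spidr, over Cebpd, at -0.68 and 0.20.

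Promoter sequences from RefSeq (GRCm38.p6) matched 5 of the 8 genes; Spi1, Cebpd and Cebpe were not matched. The 250 bases before the start site are shown for 3 genes, because Irf8 had the largest fall of the 8 in both populations and Cebpa and Cebpb, called in opposite directions in the 2 populations, have no intron. Capitals mark the matches found on either strand among 7 searched motifs: TTNNGNAA (C/EBP), GAGGAA (PU.1), GAAA followed by GAAA after any 2 bases (IRF), TTCNNNGAA (the GAS element bound by STAT factors), AAATCNC (GFI1), TGACG (a CRE half-site) and TATAAA (the TATA box). Irf8 is read at chr8:120736108-120736357, Cebpa at chr7:35119043-35119292 and Cebpb at chr2:167688665-167688914, all on the plus strand.
Irf8: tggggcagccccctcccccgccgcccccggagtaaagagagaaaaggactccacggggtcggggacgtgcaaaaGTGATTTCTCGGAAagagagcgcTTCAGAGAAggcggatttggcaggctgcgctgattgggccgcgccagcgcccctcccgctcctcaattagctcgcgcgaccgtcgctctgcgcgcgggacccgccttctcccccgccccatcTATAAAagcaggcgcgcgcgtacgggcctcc
Cebpa: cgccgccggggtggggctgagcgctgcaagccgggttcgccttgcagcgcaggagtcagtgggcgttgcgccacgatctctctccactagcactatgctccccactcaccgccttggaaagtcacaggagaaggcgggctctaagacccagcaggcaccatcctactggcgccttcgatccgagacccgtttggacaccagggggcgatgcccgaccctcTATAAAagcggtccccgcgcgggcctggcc
Cebpb: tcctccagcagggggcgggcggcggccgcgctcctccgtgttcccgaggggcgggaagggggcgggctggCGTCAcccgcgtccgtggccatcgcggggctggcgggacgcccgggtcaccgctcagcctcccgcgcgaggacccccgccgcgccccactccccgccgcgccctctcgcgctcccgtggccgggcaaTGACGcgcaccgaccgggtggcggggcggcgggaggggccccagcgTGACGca
RefSeq lists a second Irf8 start downstream, whose 250 bases (from 120738389) hold none of the 7 motifs; the window shown is the one that ends at the start of the GENCODE gene. It holds 2 GAS matches, TTCTCGGAA starting 171 bases and TTCAGAGAA starting 153 bases before the start site, and a GFI1 match, GTGATTT on the minus strand, that overlaps the first of them; a TATA box starts at 31 bases. A GAS match is present in 7.02% and a GFI1 match in 10.3% of 32851 promoter windows of the same length. Cebpa has only a TATA box, starting at 30 bases (in 12.4% of windows), and Cebpb only 3 CRE half-sites, starting at 180, 53 and 7 bases (at least 1 is present in 17.8% of windows). The C/EBP, PU.1 and IRF letters, found in 36.8%, 23.3% and 2.98% of windows, are absent from these 3 windows, which says only that these letters do not occur there.

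U2af1 itself rose under the KO label in LinNeg as well as in LSK, with fold changes of 0.65 (standard error 0.19, adjusted p of DESeq2 0.00293) in LinNeg and 0.61 (standard error 0.06, adjusted p of DESeq2 1.72e-25) in LSK in the authors' deposited tables, against the direction that the label names. The labels do not say which part of the gene was deleted, and the tables hold 1 value for the whole gene, so the genotype is not checked here. WT and KO stand for the libraries so labelled, and every direction given rests on those labels. How deeply each library was sequenced is unknown. Levels below are means of normalized counts under each label, derived from the authors' overall mean and fold change, with no value per library. The marker lists moved with the label as well. In LinNeg the summed derived mean of 8 mast cell, basophil and eosinophil markers was 594572 under WT and 54329.5 under KO (4 fell and 1 rose), while 7 of 7 tested erythroid markers rose (sums 12450.1 and 56943.8), with Hbb-bt, Hbb-bs and Hba-a1 at 0. In LSK 8 of 10 stem cell markers fell and 1 rose (sums 85469.8 and 28550.4), 7 of 7 tested erythroid markers rose (7736 and 52799.7, with Hbb-bt and Hbb-bs at 0), and 7 of 7 neural transcripts rose (14.7 and 2748); in LinNeg 5 of 7 neural transcripts rose (882 and 3007). The Y-linked Ddx3y was at -9.21 and Xist, which silences an X chromosome, at 7.49 in the authors' deposited LSK table, so in LSK the genotype label moved together with sex-linked transcripts; in LinNeg Xist was at 10.02 and Ddx3y, at -0.79, was not called. In LSK 6 of 8 mast cell, basophil and eosinophil markers rose (2554 and 7862). Megakaryocyte markers fell in both populations, 6 of 8 in LinNeg (22027 and 4975) and 7 of 7 tested in LSK (12980.1 and 3492). B cell markers were called lower for 3 of 8 in LinNeg and 2 of 8 in LSK. Of 8 endothelial and stromal markers 3 fell in LinNeg (204607 and 116773), and 3 fell and 1 rose in LSK (4633 and 2585). Of the T and NK cell markers 1 fell and 2 rose of 6 tested in LinNeg, and 1 of 8 fell in LSK. The part of any of these in the results below was not tested. Kit and Ly6a (Sca-1), which define LSK cells, were present in LSK at authors' means of 21655 and 464.1. Both were called lower there under KO, with authors' fold changes of -0.98 and -0.82. In LinNeg Ly6a had an authors' mean of 1694 and rose by 2.20, and Kit (0.36) was not called. The lineage markers Itgam and Cd3e were not at 0 in LinNeg, with authors' means of 2587 and 366 in their deposited table.

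In LinNeg, Irf8, the monocyte and dendritic cell factor, had a derived mean of 23519 normalized counts under WT and 349.5 under KO. Its fold change in the authors' deposited table was -6.07 (standard error 0.15, adjusted p of DESeq2 listed as 0), the 39th lowest of 17108 tested genes and the third largest by the size of the Wald statistic. Spi1, the pan-myeloid factor, was at 6675 and 752, a fold change of -3.15 (standard error 0.15, adjusted p of DESeq2 4.35e-92) in the authors' deposited table. These 2 genes, which act together at monocyte and dendritic cell enhancers, had the lowest fold changes of the 8. Fewer cells of a type and less RNA per cell cannot be told apart in such bulk samples.

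Of the 5 C/EBP genes 4 fell in LinNeg, each by less than Spi1. Cebpa, the entry factor of the granulocyte and monocyte lineage, had derived means of 24024 under WT and 3563 under KO, and its fold change in the authors' deposited table was -2.75 (standard error 0.30, adjusted p of DESeq2 5.5e-19). Cebpd went from 1110.2 to 268, with a fold change of -2.05 (standard error 0.24), and Cebpb from 3317 to 1051, with one of -1.66 (standard error 0.20), according to the authors' deposited table. Both are inducible members of the family. Cebpg, the partner without an activation domain, was at 3599 and 1913, or -0.91 (standard error 0.14, adjusted p of DESeq2 3.19e-10) in the authors' deposited table. It was the only called member in LinNeg that changed by less than 2-fold.

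The 2 genes not called in LinNeg are both factors of the neutrophil lineage. Cebpe had derived means of 193 under WT and 114 under KO, with a fold change of -0.75 in the authors' deposited table and a 95% interval from -1.92 to 0.42 (adjusted p of DESeq2 0.326). Gfi1 was at 682 and 1167, with a fold change of 0.77 and an interval from 0.10 to 1.45 (adjusted p of DESeq2 0.0576 in the authors' deposited table). Gfi1 passed the threshold when p-values were adjusted over genes with a mean of at least 100 (adjusted p 0.0463) and when fold changes were recentred on genes with a mean of at least 1000 (adjusted p 0.0309). The standard errors of Cebpe (0.60) and Gfi1 (0.34) were the widest of the 8, and Cebpe had the lowest mean.

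Against the whole LinNeg table, 19.3% of tested genes were called lower and 22.1% higher, and the members' 6 lower and 0 higher stand beside these shares. Of all calls 53.3% were higher, and 42.4% when fold changes were recentred on the median gene, which stood at 0.16; the members' calls did not change under that scaling. The median fold change was -1.86 over the 8 members, against 0.16 over all tested genes. By 2-fold or more, 5 members fell, as did 9.59% of all tested genes.

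**Figure D1:**
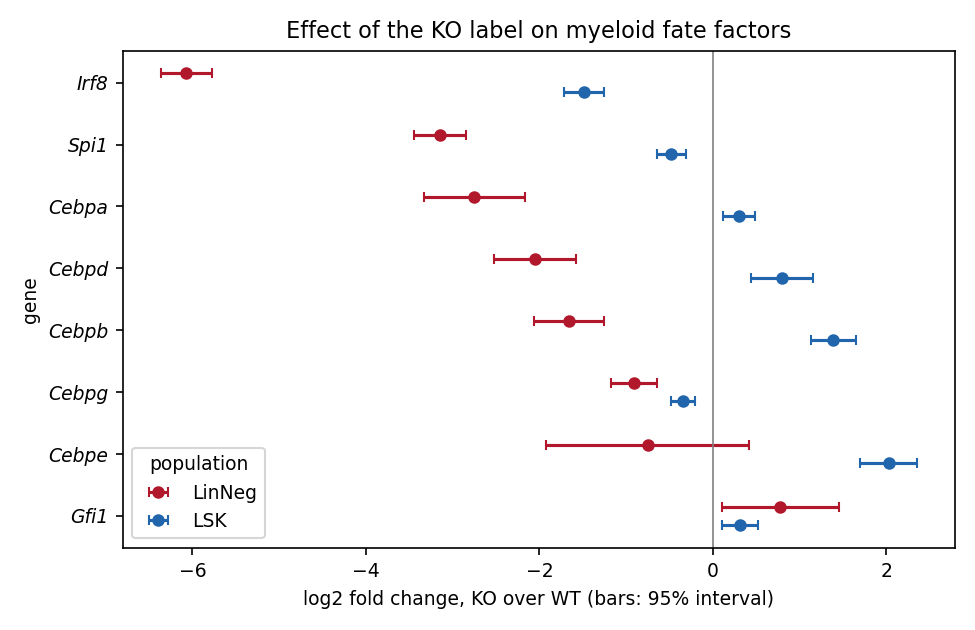
Fold change of each of the 8 genes, KO over WT on the log2 scale (horizontal axis), in LinNeg (red) and LSK (blue); points are the authors' estimates from 3 libraries per group and bars are 95% intervals from their standard errors. The LinNeg interval lies to the left of the LSK interval for every gene except Gfi1, whose intervals overlap, and Irf8, Spi1 and Cebpg are below 0 in both populations.

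In LSK cells Irf8, Spi1 and Cebpg fell and the other 5 genes rose. Irf8 had derived means of 2312 under WT and 826 under KO, and a fold change of -1.49 (standard error 0.12, adjusted p of DESeq2 4.45e-34) in the authors' deposited table. Spi1 was at 2424 and 1739, or -0.48 (standard error 0.09, adjusted p of DESeq2 9.99e-08), and Cebpg at 3123 and 2460.1, or -0.34 (standard error 0.07, adjusted p of DESeq2 3.35e-06), in the same authors' deposited table. The fall of Irf8 was 2.80-fold and those of Spi1 and Cebpg 1.39-fold and 1.27-fold.

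Cebpe, the late granule factor, rose most, from a derived mean of 132 under WT to 537 under KO, a fold change of 2.03 (standard error 0.17, adjusted p of DESeq2 4.5e-33) in the authors' deposited table. Cebpb rose from 453 to 1185, or 1.39 (standard error 0.13, adjusted p of DESeq2 7.77e-25), and Cebpd from 201 to 349, or 0.80 (standard error 0.18, adjusted p of DESeq2 3.23e-05), in the authors' deposited table. The log2 rises of Gfi1 and Cebpa were the smallest. Gfi1 was at 1674 and 2084, with a fold change of 0.32 (standard error 0.11, adjusted p of DESeq2 0.00538), and Cebpa at 3366 and 4147, with one of 0.30 (standard error 0.09, adjusted p of DESeq2 0.00255), in the authors' deposited table. Both lost the call with a t distribution of 4 degrees of freedom in place of the normal (adjusted p 0.077 for Gfi1 and 0.0642 for Cebpa) and with recentring on genes with a mean of at least 1000 (adjusted p 0.123 and 0.108).

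Of the genes tested in LSK, 29.2% were called lower and 32.4% higher, so that 3 lower and 5 higher of 8 stands beside a table in which most genes were called. By 2-fold or more, Irf8 alone of the 8 fell, a share close to the 12.9% of all tested genes, and Cebpe and Cebpb rose, where 9.75% of all tested genes did. The median over the members was 0.31 and that over all tested genes 0.04.

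The difference of the effects was tested per gene, LSK minus LinNeg, over 15735 genes with an adjusted p in both tables, which share no library. It passed for 7 of the 8 genes, all higher in LSK, where 17.4% of all genes were higher and 14.5% lower. Irf8 differed most, by 4.59 (standard error 0.19, adjusted p 2.17e-122). Next came Cebpa at 3.05 (standard error 0.31), Cebpb at 3.04 (standard error 0.24), Cebpd at 2.85 (standard error 0.30), Cebpe at 2.78 (standard error 0.62, adjusted p 5.82e-05) and Spi1 at 2.67 (standard error 0.18). These 5 differences span only 2.67 to 3.05, while the fold changes behind them run from -3.15 to -0.75 in LinNeg and from -0.48 to 2.03 in LSK. Cebpg differed by 0.57 (standard error 0.15, adjusted p 0.00128). For Gfi1 the difference was -0.46 with a 95% interval from -1.17 to 0.25 (adjusted p 0.362), so a lower effect in LSK of up to 1.17 and a higher one of up to 0.25 both lie within it.

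Calls in opposite directions, lower in LinNeg and higher in LSK, were made for 3 of the 8 genes, Cebpa, Cebpb and Cebpd, against 3.43% of all genes tested in both tables. These are the 3 members without an intron. Among 328 single-exon protein-coding genes tested in both populations, 20 (6.10%) had this pattern, as did 504 (3.62%) of 13938 spliced ones. Neither the difference between these classes nor a part of introns in the pattern was tested. Irf8, Spi1 and Cebpg were called lower in both populations, and Cebpe and Gfi1 were called in LSK and not in LinNeg. For Cebpe the tested difference passed, and for Gfi1 it did not.

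**Figure D2:**
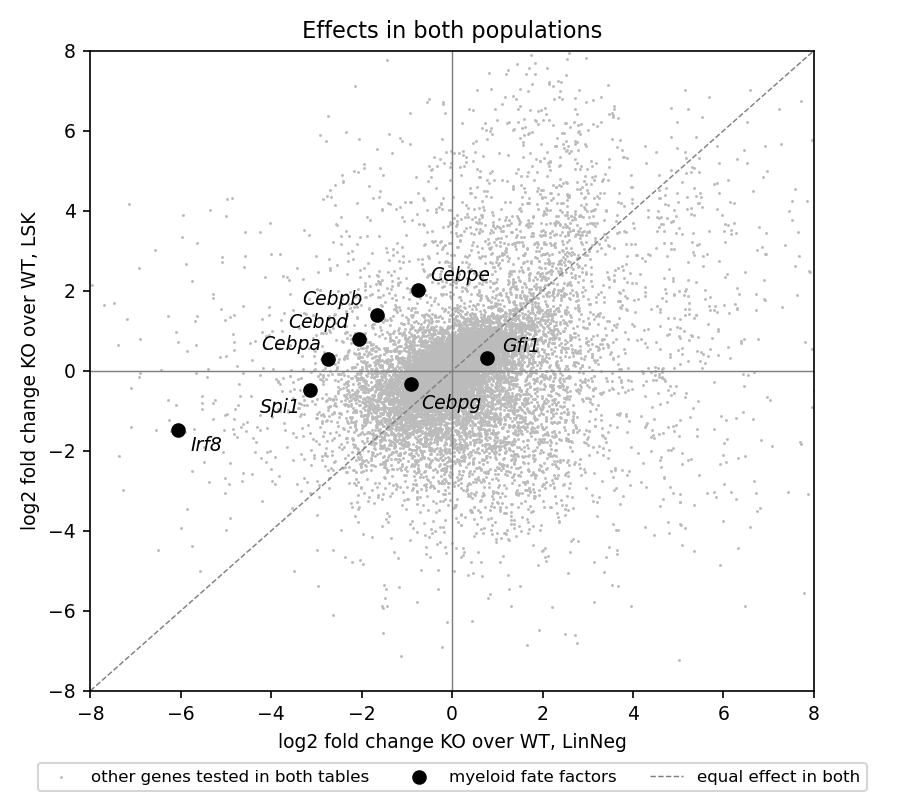
Fold change KO over WT on the log2 scale in LinNeg (horizontal) and in LSK (vertical) for 15735 genes tested in both tables (grey; 48 lie beyond the axes) and the 8 factors (black); the dashed line marks an equal effect. Irf8 lies 4.59 above the dashed line and Spi1, Cebpa, Cebpb, Cebpd and Cebpe 2.67 to 3.05 above it, while Cebpg and Gfi1 lie among the bulk of genes.

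Levels per kilobase of exon give the order of the factors within each group; no spread per library is at hand, so neighbours in these orders were not tested. In LinNeg under WT the derived mean per kilobase was highest for Cebpa (9114), followed by Irf8 (3334), Spi1 (2477) and Cebpb (2206), with Cebpg (640.4), Cebpd (296), Gfi1 (214) and Cebpe (155) far below. Under KO Cebpa still led (1352), followed by Cebpb (699), Gfi1 (366), Cebpg (340.3) and Spi1 (279), and Irf8, the next to highest under WT, was the lowest at 49.5. These orders depend on the exon lengths used, and the gene models used for counting are not known. Without division by length, the derived mean of Irf8 in LinNeg under KO (349.5) was above those of Cebpd (268) and Cebpe (114). In LSK under WT Cebpa (1277) and Spi1 (899) led, with Cebpg at 556, Gfi1 at 525, Irf8 at 328, Cebpb at 301, Cebpe at 106 and Cebpd at 53.6. Under KO Cebpa (1573) was followed by Cebpb (788), Gfi1 (654) and Spi1 (645), with Cebpg at 438, Cebpe at 433, Irf8 at 117 and Cebpd at 93.3. Cebpa was thus the most abundant of the 8 per kilobase in every group, and the tables were normalized separately, so these levels are not set against each other across populations.

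**Figure D3:**
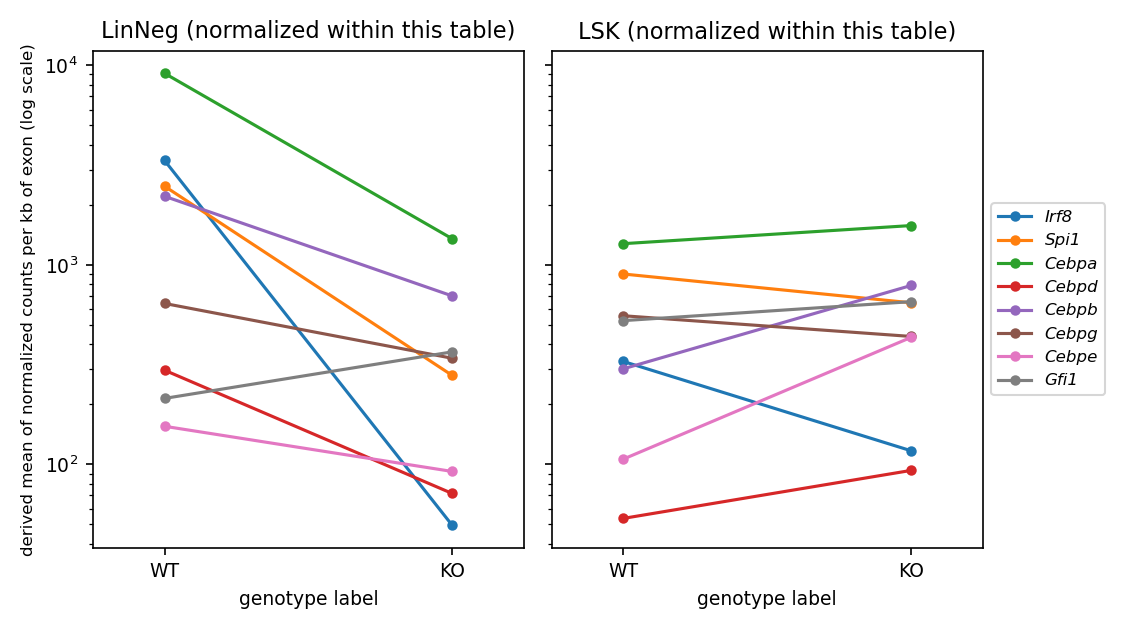
Derived mean of normalized counts per kilobase of exon (vertical, log scale) under the WT and KO labels in LinNeg (left) and LSK (right), 1 line per gene, from 3 libraries per label and without a spread per library. In LinNeg the Irf8 line crosses all others except that of Cebpa, which lies above it throughout; in LSK the lines of Cebpb and Cebpe climb and that of Irf8 falls. Levels are comparable within a panel only.

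The makeup of the C/EBP family under WT and under KO is given as shares of its summed level, with no test. Summed over the 5 genes, the derived mean per kilobase was 12411 under WT and 2554 under KO in LinNeg, and Cebpa held 73.4% and 52.9% of it. In LSK the sum was 2294 under WT and 3325 under KO; the share of Cebpa was 55.7% and 47.3%, that of Cebpb 13.1% and 23.7%, and that of Cebpe 4.64% and 13.02%. The share of Cebpg in LSK was 24.2% under WT and 13.2% under KO.

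Ratios between pairs of the factors are given per kilobase, with the largest standard error that the change could have, the sum of both genes' errors, since their covariance is not known. Irf8 to Gfi1, monocyte against neutrophil repressor, was 15.6 under WT and 0.135 under KO in LinNeg, a log2 change of -6.85 (standard error at most 0.49), and 0.624 and 0.179 in LSK, a log2 change of -1.80 (at most 0.23). The ratio moved the same way in both populations. Spi1 to Cebpa was 0.272 and 0.207 in LinNeg, a log2 change of -0.40 that is smaller than its largest possible error (0.45), and 0.704 and 0.410 in LSK, a log2 change of -0.78 (at most 0.18). Cebpe to Irf8 was 0.0466 and 1.86 in LinNeg, a log2 change of 5.32 (standard error at most 0.75). In LSK it was 0.325 and 3.70, a log2 change of 3.51 (at most 0.29). Per kilobase Cebpe thus exceeded Irf8 under KO and not under WT in each population. That order rests on the exon lengths used, 1241 bases for Cebpe and 7055 for Irf8. By derived means of counts under KO, Irf8 stayed above Cebpe, at 349.5 and 114 in LinNeg and 826 and 537 in LSK. Cebpa to Gfi1 was 42.6 under WT and 3.69 under KO in LinNeg, a log2 change of -3.53 (at most 0.64), and 2.43 and 2.41 in LSK, a log2 change of -0.01 (at most 0.20).

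The genes around these factors were taken from 7 lists written from general knowledge, but with earlier results of these data known. Their counts are therefore no independent support. The lists are described without a list test, and 92 genes are on them beside the members. In LinNeg 59 of these were called lower and 4 higher, beside 19.3% and 22.1% of all tested genes. In LSK 26 were lower and 36 higher, beside 29.2% and 32.4% of all tested genes. Upstream stand the cytokine receptors of the myeloid lineages. Of 8 receptors 7 fell and 0 rose in LinNeg (median -2.78, against 0.16 for all tested genes). The authors' deposited LinNeg table gave Csf1r, the macrophage colony-stimulating factor receptor, -5.53 (standard error 0.24), Flt3 -6.51 (standard error 0.33) and Il6ra -4.55 (standard error 0.19). Csf3r, the receptor for granulocyte colony-stimulating factor, was at -3.01 (standard error 0.36) there. In LSK 4 receptors fell and 1 rose (median -0.80, against 0.04). Flt3 (-4.49, standard error 0.26), Il6ra (-1.50) and Csf3r (-1.18) fell, Csf2rb, the shared beta chain, rose (0.65), and Csf1r (-0.63, standard error 0.35) was not called in the authors' deposited LSK table.

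Of 13 target genes of PU.1, 10 fell and 0 rose in LinNeg (median -2.04), and 4 fell and 5 rose in LSK (median -0.00). Lysozyme, Lyz2, fell in both (-4.10 and -1.43), as did the integrin Itgam (-1.66 and -0.78) and the adaptor Tyrobp (-2.37 and -0.74), in the authors' deposited tables. The Fc receptor Fcgr3 fell by 2.70 in LinNeg and rose by 2.57 in LSK, and Cybb, the catalytic subunit of the phagocyte oxidase, was at -1.19 and 2.32, in the same authors' deposited tables. Both were called in each population, in opposite directions.

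The primary granule genes, downstream of C/EBPalpha, were called in opposite directions in the 2 populations, and the late granule genes, downstream of C/EBPepsilon, only in part. Of the 8 primary granule genes listed 7 were in the tables, and 7 of 7 fell in LinNeg (median -3.73) and 7 of 7 rose in LSK (median 1.60). Myeloperoxidase, Mpo, was at -4.90 (standard error 0.25) and 1.33 (standard error 0.08), and neutrophil elastase, Elane, at -2.71 and 2.52, in the authors' deposited tables for LinNeg and LSK. Of the late granule genes 6 of 11 tested fell and 0 rose in LinNeg, and 9 of 12 rose and 0 fell in LSK (medians -2.09 and 3.25). Ngp was called in neither population (0.36 and 2.60), and Mmp8 fell in LinNeg and was not called in LSK (adjusted p of DESeq2 0.411), in the authors' deposited tables. Lipocalin, Lcn2, was at -1.95 (standard error 0.43) in LinNeg and 5.07 (standard error 0.26) in LSK in the authors' deposited tables. The late granule genes were sparse in LSK, where Lcn2 alone had an authors' mean of at least 100 (338). Summed over the 12, the derived means there were 104.6 under WT and 1404 under KO. Camp had derived means of 39.6 and 1.17 in LinNeg and 2.35 and 16.8 in LSK. Mmp8 had 21.4 and 0.178 in LinNeg, where a mean under 1 makes the fitted fold no measured ratio. Ltf, with derived means of 141 and 354 in LinNeg, has a fold change there of 1.33 (standard error 1.62) and no adjusted p in the authors' deposited table. The difference of the effects, LSK minus LinNeg, was higher for 7 of 7 primary and 9 of 11 late granule genes and lower for 0.

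Of 16 monocyte and dendritic cell genes linked to IRF8, 13 fell and 0 rose in LinNeg (median -3.05), and 3 fell and 5 rose in LSK (median 0.00). In LinNeg Mpeg1, a pore-forming protein of macrophages, was at -7.10 (standard error 0.14) and Ly86 had a fold change of -6.55 (standard error 0.28), from the authors' deposited table. Siglech, of plasmacytoid dendritic cells, had derived means of 829.7 under WT and 0.350 under KO. In LSK Ly86 fell (-1.49, standard error 0.31), the monocyte chemokine receptor Ccr2 rose (1.28, standard error 0.16), and Mpeg1 (-0.43, standard error 0.28) was not called in the authors' deposited table. Irf8 itself fell in LSK, as did 3 of these 16 genes. The difference of the effects passed for 13 of the 16, all higher in LSK.

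Genes that GFI1 is known to repress did not move one way. Of 12, 6 fell and 2 rose in LinNeg and 4 fell and 3 rose in LSK, and Irf8, itself on the list, is among the falls of both. Meis1, a stem cell transcription factor, fell in both populations (-1.52 in LinNeg and -2.40 in LSK), and Csf1, the macrophage growth factor, fell in LinNeg (-1.80) and was at -0.05 in LSK, in the authors' deposited tables.

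**Figure D4:**
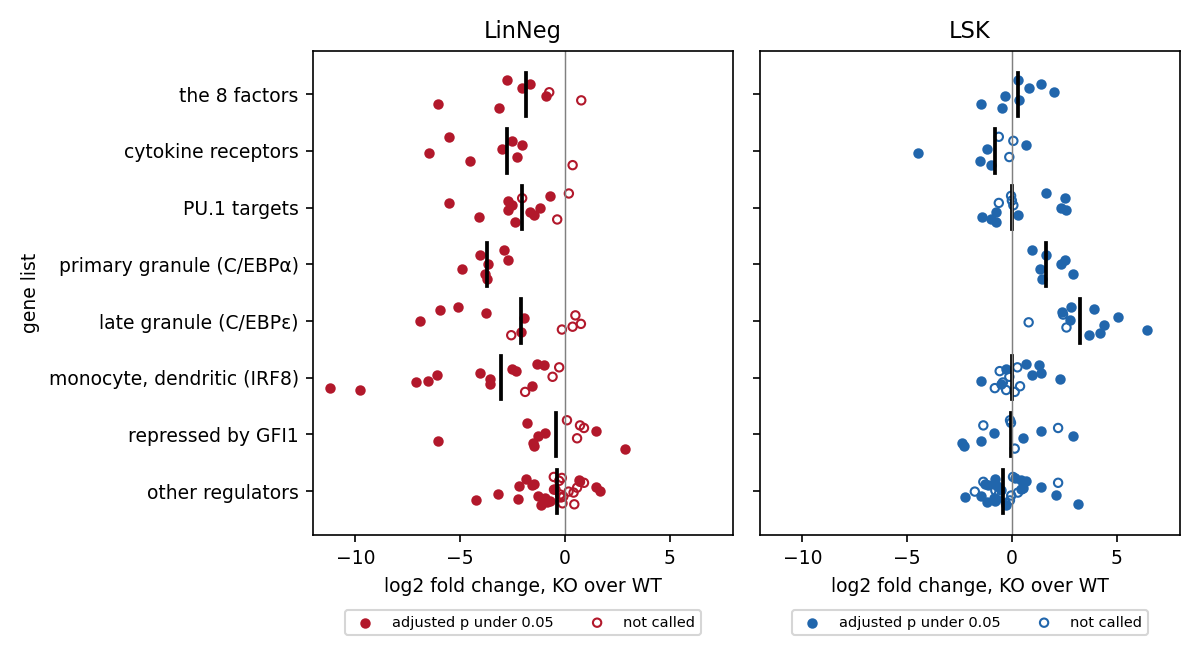
Fold change KO over WT on the log2 scale (horizontal) of the genes with an adjusted p on each list (rows), in LinNeg (left, red) and LSK (right, blue); filled points are called, open points are not, and black bars are medians. The medians of the primary and late granule lists lie at -3.73 and -2.09 in LinNeg and at 1.60 and 3.25 in LSK.

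Among 30 other regulators of myeloid fate 13 fell and 3 rose in LinNeg (median -0.37), and 12 fell and 8 rose in LSK (median -0.41). Runx1, which acts upstream of Spi1, fell in both (-2.23, standard error 0.12, and -0.74, standard error 0.07, in the authors' deposited tables). Klf4, a monocyte factor downstream of IRF8, fell in LinNeg (-3.21, standard error 0.30) and was not called in LSK (-0.62, standard error 0.57) in the authors' deposited tables. Irf4, the close relative of Irf8, rose in LinNeg by 1.66 (standard error 0.41), and in LSK it was at -0.79 (standard error 0.49) without a call. Gfi1b, the paralog of Gfi1 that serves erythroid and platelet lineages, rose in both (1.47, standard error 0.21, and 1.36, standard error 0.11), beside the erythroid markers given above. Gata2 fell in both (-2.19 and -0.69), and Egr1, an early response factor of monocytes, was called in neither (0.71 and -1.37), in the authors' deposited tables.

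The genes whose pair of fold changes lay nearest to each factor were sought among the 8741 genes whose means reached 100 and whose standard errors were 0.3 or less in both tables. Likeness here rests on 2 comparisons only, measured as the distance between the pairs of log2 fold changes. Among these, Irf8 had no gene within 0.5, and the nearest were BC035044 (distance 0.87) and Fgd2 (1.03). This rests on the limits set. Ly86, at -6.55 in LinNeg and -1.49 in LSK beside -6.07 and -1.49 for Irf8, was left out. Its authors' mean in LSK was 81.1, with a standard error of 0.31. Csf1r, at -5.53 and -0.63, was left out for a standard error of 0.35 in LSK. For Spi1 they were Ptprs (0.11) and Themis2 (0.21), for Cebpa Card9 (0.13) and Cd63 (0.17), for Cebpb Ap3s1 (0.09) and Scin (0.21), and for Cebpd Dtx4 (0.09) and Fam46a (0.15). Cebpg and Gfi1 had 1092 and 1346 genes within 0.5, led by Midn (0.01) and Mcm8 (0.02), and Spi1, Cebpa and Cebpb had 13, 12 and 12.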

How the data were processed

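RNA was sequenced from 12 libraries in 4 groups of 3, grouped by title. HISAT2, SAMtools 1.10, StringTie, DESeq2 and build mm10 are named, per the submitters' processing notes, without their roles. How reads were counted, and on which gene models, is not given in the sources used here. The 2 tables hold the authors' comparisons of KO with WT. Columns are, per the file headers, the authors' mean normalized count (a signal on a linear scale), the log2 fold change with its standard error, the Wald statistic (a score), and the p-value and adjusted p-value.

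Of 24542 rows per table, 5 that name no gene (38.7% of summed means in LinNeg, 27.2% in LSK) and 4 with repeated symbols were left out. The deposited log2 fold changes are rounded and were replaced by the product of Wald statistic and standard error (largest gap 0.005). This match cannot tell whether they were shrunken, since folds shrunken before the Wald test would match as well. Means per label assume 3 libraries on each side and fold changes that were not shrunken. Intervals at 95% use the normal distribution. The difference of effects was divided by its standard error, from both tables' squared errors (two-sided normal test, Benjamini-Hochberg over 15735 genes). The calculation was tried on fold changes simulated with the deposited standard errors, which cannot show whether those errors are right. Count tests, leaving out replicates and blocking by replicate need values per library, not analysed here. Alternatives were other thresholds, adjustments, reference distributions and centrings.

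The members and lists were chosen with earlier results of these data known. Named genes were the members, U2af1, the first 6 genes of each list as written, and the 2 genes most like each member, apart from some that are not reported here; the lineage and sex-linked markers, the overlapping genes Tmem189 and Spidr, Ddit3 and Cebpz were named for what they are or after their values were seen. Scripts ran in Python 3.11.15 with scipy 1.17.1, numpy 2.4.6, pandas 2.3.3 and, for figures, matplotlib 3.10.9.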

Additional observations from a re-analysis of the deposited data

Results flagged for a closer look

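The effect of the KO label differed between LSK and LinNeg, by a test of the difference itself, for 7 of the 8 genes. Over all genes tested in both, 17.4% were higher in LSK and 14.5% lower. The differences in log2 fold change, LSK minus LinNeg, were 4.59 for Irf8, 3.05 for Cebpa, 3.04 for Cebpb, 2.85 for Cebpd, 2.78 for Cebpe, 2.67 for Spi1 and 0.57 for Cebpg, with adjusted p-values from 2.17e-122 (Irf8) to 0.00128 (Cebpg). By Bonferroni over all genes the differences of Cebpe (adjusted p 0.111) and Cebpg (adjusted p at its ceiling of 1) did not pass. The populations also differ in their source labels, BM and BMT, which cannot be told apart from the cell type here. In LSK the genotype label moved together with sex-linked transcripts (Ddx3y -9.21, Xist 7.49), so label and sex cannot be told apart there. In LinNeg Xist was at 10.02, and Ddx3y, at -0.79, was not called. A part of sex in these differences was not tested.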

How the results depend on the processing

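Of 168 values of single members under the alternatives, 151 kept their direction and their side of the threshold, 0 reversed, and 17 crossed the threshold. Only recentring alters the fold changes, so under the other alternatives no direction could reverse. The count of members called in LSK, 8 in the tables as deposited, was 5 by Bonferroni (3 lower, 2 higher) and 3 when a change of at least 2-fold was required. The remaining 27 values that answer a comparison stayed within 1.5 times of the reported count: LinNeg gave 5 to 7 called members and the difference 5 to 7. Cebpa and Gfi1 in LSK were the members whose calls were lost most often, under 4 of 8 alternatives each. Over all genes, the LinNeg calls numbered 7088 as deposited, 2295 with a t distribution of 4 degrees of freedom and 2734 by Bonferroni, and the LSK calls 10148 as deposited and 6355 by Bonferroni; with at least 2-fold they were 4043 and 3732. Recentring on genes with a mean of at least 1000 put 59.6% of LinNeg calls and 43.5% of LSK calls higher, against 53.3% and 52.6%. The causes of these shifts were not tested. No paired analysis was possible because the tables hold no values per library, and leaving out single libraries could not be run for the same reason. Depth per library is unknown, so how far it limits Cebpe in LinNeg, the least abundant member there, is not known.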

Other observations

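Further C/EBP-related genes stand on the list of other regulators and are named here after their values were seen. Ddit3, the stress-induced C/EBP partner CHOP, had a fold change of -0.28 (standard error 0.25, not called) in LinNeg and rose by 0.66 (standard error 0.15, adjusted p of DESeq2 3.31e-05) in LSK in the authors' deposited tables. Cebpz, which carries the family's name but not its leucine zipper, rose in both (0.65, standard error 0.18, and 0.42, standard error 0.06, in the authors' deposited tables). The difference between the populations passed for Ddit3 (0.94, standard error 0.29) and not for Cebpz (-0.23, standard error 0.19).

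In LinNeg 17.8% of 376 tested single-exon protein-coding genes were called lower and 13.03% higher, against 20.6% and 23.6% of 15049 spliced ones. In LSK 23.4% of 364 were called lower and 32.1% higher, against 30.2% and 34.8% of 14385 spliced ones. The difference between the classes was not tested.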
